A study of Mus musculus with 15 samples.

Results

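The 37 genes described here are a fixed list of T cell and natural killer (NK) cell genes, measured by RNA sequencing in mouse brain tumours. They were chosen by symbol, and all 37 were found among the 54232 Ensembl gene IDs of the deposited tables. They cover the T cell receptor and CD3 complex (7 genes), the coreceptors (3), adhesion and costimulation (5), proximal signalling (3), regulatory T cell and interleukin 2 receptor genes (3), checkpoint receptors (5), cytotoxic effectors (6), NK receptors (2), and an effector chemokine, a chemokine receptor and a transcription factor (3). The tumours grew in the frontal cortex of C57BL/6 mice that carry Tv-a, the receptor for the avian RCAS viruses, under Nestin. Injected DF-1 chicken cells supplied RCAS-Cre, RCAS-PDGFA and an H3.3 histone fused to GFP, and tumour tissue was taken when a mouse reached a functional end point. The groups were ATRX fl/fl together with p53 fl/fl and H3.3G34R (ATRXfl_G34R, n = 4), the same alleles with H3.3WT (ATRXfl_WT, n = 4), p53 fl/fl alone with H3.3G34R (p53_G34R, n = 3), and p53 fl/fl alone with H3.3WT (p53_WT, n = 4). All 15 tumours thus share Nestin Tv-a, floxed p53, Cre and PDGFA, and each histone is added to the endogenous H3.3. RCAS viruses enter cells with Tv-a, which the Nestin promoter limits to neural cells, and the immune cells in the tumour tissue are those of the mouse itself. The labels give no age, and no label says that each library came from a separate mouse.

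T cells recognise peptides on MHC molecules through the T cell receptor, whose signal is carried into the cell by the CD3 chains and the kinases Lck and Zap70. Helper T cells carry CD4 and cytotoxic T cells carry CD8, and cytotoxic T cells and NK cells kill by releasing granzymes and perforin. Checkpoint receptors such as PD-1, CTLA-4, LAG-3 and TIM-3 restrain T cells that have been stimulated for long, and gliomas are known as tumours poor in T cells and rich in microglia and macrophages. Some of the listed genes are also expressed outside T and NK cells: Havcr2 by microglia and macrophages, Cd4 by some macrophages and dendritic cells, and Ccl5 by many cells exposed to interferon or to viral products.

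Values are normalized counts, the reads of a gene divided by a size factor for each library, scaled over all 15 libraries where single libraries are given. Means are given ± SD. Libraries held 22807315 to 35679129 reads in genes, and 1 read was worth 0.855 to 1.21 normalized counts. A library with 0 reads of a gene allows a level of up to 2.56 to 3.62 normalized counts (3 reads), a limit for counting error only. Atrx, the floxed gene, was at 1346 to 3124 in the 8 floxed libraries and at 5143 to 8540.0 in the 7 intact ones, with no overlap. Single libraries stood apart in ways that touch the T and NK cell genes. Replicate 3 of p53_WT held 37984 counts of the neuronal gene Snap25 and the highest sum over 19 microglia and macrophage markers (109910.0, median of all libraries 37838). Replicate 1 of ATRXfl_WT held the highest sums over the 6 erythroid markers (565610.0, median 32889) and the 8 endothelial markers (82738, median 13425). Replicate 4 of ATRXfl_G34R held the highest sum over 12 B and plasma cell markers (113331, median 2929). The first code of the title is shared by ATRXfl_G34R replicates 1 and 4, by p53_G34R replicates 2 and 3 and by p53_WT replicates 3 and 4, and the labels do not say what it means.

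Most of the listed genes had few reads. Their mean over the 15 libraries was at least 10 normalized counts for 27 of 37 members and below that for 10. Reads were present in every library for 17 members, and 7 members stayed below 20 normalized counts in every library. Only Lag3, Havcr2 and Ccl5 had a median of at least 100, and together they held 38.1% to 74.9% (median 51.5%) of all counts of the 37 genes in a library. Per kilobase of exon, the highest medians were 171 for Lag3, 113 for Ccl5 and 95.7 for Havcr2, followed by 28.1 for Lck, 22.03 for Trbc2 and 21.7 for Zap70. Cd3e, the defining T cell gene, was at 2.36 per kilobase, in place 26 of 37. Exon lengths join the exons of all annotated transcripts of a gene, so values per kilobase depend on the annotation. Cd3e has 4080 such bases and a median of 9.65 counts, while Cd3d has 1815 bases, a median of 10.4 and place 18. In these bulk tumours, fewer T or NK cells and less RNA of a gene per cell cannot be told apart.

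Tumours of the same group differed widely. Summed over the 37 genes, counts were 1187, 1152, 2103 and 3648 in the ATRXfl_G34R libraries and 2484, 1358, 659 and 1528 in the ATRXfl_WT libraries. The same sums were 2208, 692 and 1452 in p53_G34R and 1674, 403, 2803 and 1413 in p53_WT. All 4 groups overlap in this sum, which is highest in ATRXfl_G34R replicate 4 and lowest in p53_WT replicate 2. That p53_WT tumour was also the lowest, or tied for it, in 17 of the 37 genes and had no read of 13. ATRXfl_G34R replicate 4 and ATRXfl_WT replicate 1 were each the highest library for 10 genes.

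**Figure D1:**
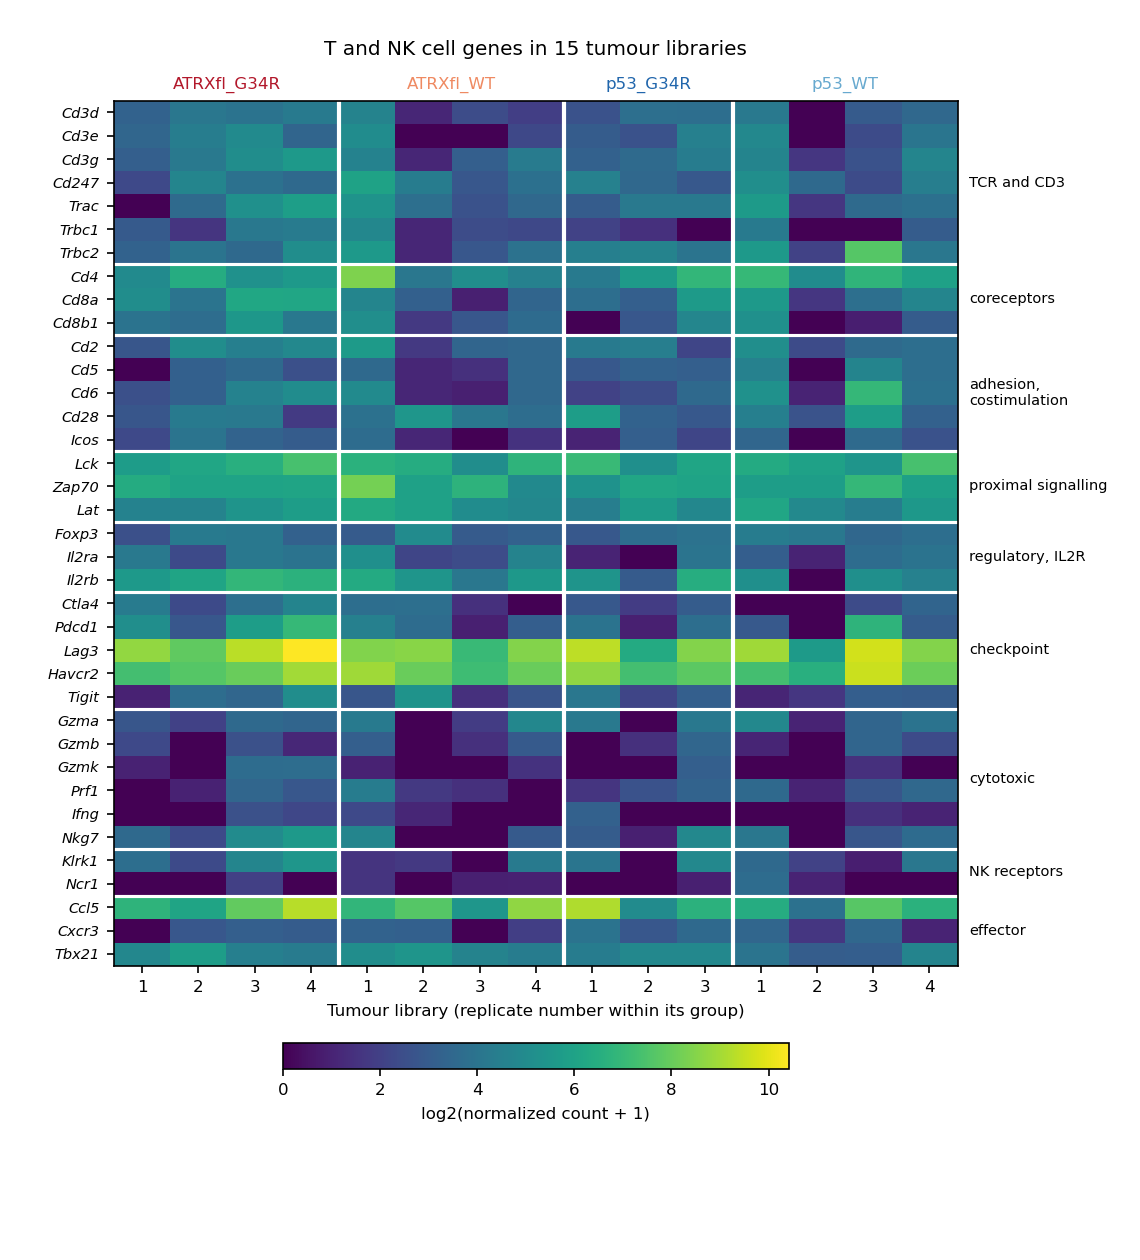
Heat map of log2(normalized count + 1) for the 37 T and NK cell genes (rows, by role) in the 15 tumour libraries (columns, by group and replicate number). Lag3, Havcr2 and Ccl5 are bright in nearly every column, the cytotoxic genes are dark in most, and p53_WT replicate 2 is the darkest column, with no read of 13 genes.

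Among the genes of the receptor complex, Cd3d, Cd3e and Cd3g encode signalling chains that are made by T cells. Cd3e (ENSMUSG00000032093; mm10 chromosome 9, 44998740 to 45009627, minus strand) encodes the CD3 epsilon chain. Cd3e was at 9.72, 20.3, 30.6 and 9.65 normalized counts in the ATRXfl_G34R libraries and at 32.3, 0, 0 and 3.79 in the ATRXfl_WT libraries. Cd3e counts were 7.27, 5.19 and 22.2 in p53_G34R and 28.2, 0, 4.27 and 15.6 in p53_WT. The gene was highest in ATRXfl_WT replicate 1 and had no read in ATRXfl_WT replicates 2 and 3 and p53_WT replicate 2, so the range of the ATRXfl_WT group takes in that of ATRXfl_G34R. Cd3d ranged over 0 to 24.4 (median 10.4) and Cd3g over 1.17 to 48.2 (median 17.3), with the lowest Cd3d value in p53_WT replicate 2 and the lowest Cd3g value in ATRXfl_WT replicate 2. Cd247, the CD3 zeta chain, ranged over 3.89 to 62.6 (median 13.3), and 56.4% of its exon bases lie over exons of Pou2f1 on the other strand, a gene with a median of 1042 counts. The strand setting of the authors' counting is not given in the sources used here, so the reads of these genes may not be told apart. Trac, the constant region of the receptor alpha chain, ranged over 0 to 56.7 (median 12.9), with no read in ATRXfl_G34R replicate 1.

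Trbc1 and Trbc2 encode the constant regions of the receptor beta chain. Trbc1 ranged over 0 to 27.4 (median 3.79). Trbc2 was at 8.74, 15.2, 10.9 and 33.8 normalized counts in the ATRXfl_G34R libraries and at 47.9, 1.17, 6.099 and 14.2 in the ATRXfl_WT libraries. Trbc2 counts were 21.8, 24.2 and 15.1 in p53_G34R and 46.6, 3.19, 205 and 16.6 in p53_WT. Trbc2 stood at 205 in p53_WT replicate 3, the tumour rich in neuronal transcripts, where Trbc1 had no read and Cd3e was at 4.27. The other 14 libraries held at most 47.9 of Trbc2. The first constant exons of the genes are nearly the same, which bears on how reads are shared between them. Both exons have 375 bases (mm10 chromosome 6, 41538218 to 41538592 and 41546730 to 41547104, plus strand, GENCODE vM21), and they differ at 1 base (C260A, from Trbc1 to Trbc2, counted from the exon's first base). Of the windows of 50 bases in the exon, 84.7% are the same in both genes, and of those of 100 bases, 63.8%. The 100 bases around that difference are shown for each gene, with the differing base in capitals. They lie at chr6:41538428-41538527 for Trbc1 and chr6:41546940-41547039 for Trbc2.
Trbc1: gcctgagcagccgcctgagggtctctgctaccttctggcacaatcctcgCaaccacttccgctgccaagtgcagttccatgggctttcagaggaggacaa
Trbc2: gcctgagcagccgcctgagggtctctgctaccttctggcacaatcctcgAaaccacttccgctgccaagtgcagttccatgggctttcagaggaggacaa
A read that lies wholly inside the shared stretches cannot be given to either gene. The split of counts between Trbc1 and Trbc2 is therefore uncertain for this exon. How the authors' counting treated such reads is not stated here. The exon makes up 375 of the 749 exon bases of Trbc1 and of the 692 of Trbc2.

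Cd3d, Cd3g and Cd3e lie together on chromosome 9, and their counts correlated over the tumours, as described further on. Their promoters are given from RefSeq (build GRCm38.p6), which holds 25 of the 37 members. Members without an entry were Ccl5, Cd2, Cd28, Cd4, Cd6, Cd8b1, Icos, Il2rb, Lag3, Trac, Trbc1 and Trbc2. The windows run from 250 bases before the gene's start to 50 after it, 5′ to 3′ on the gene's own strand. The starts of Cd3d and Cd3g are 1355 bases apart and point away from each other, and that of Cd3e is 27825 bases from that of Cd3d. Capitals mark the letters AGGAAG, a form of ETS factor motifs, or TGTGGT, a form of RUNX motifs, on either strand. Both families are known as regulators of T cell genes. Shorter or other forms of these motifs, such as GGAA, were not counted, and GGAA does occur in the Cd3g window. The windows are chr9:44981536-44981835 (plus strand) for Cd3d, chr9:44980382-44980681 (minus strand) for Cd3g and chr9:45009562-45009861 (minus strand) for Cd3e.
Cd3d: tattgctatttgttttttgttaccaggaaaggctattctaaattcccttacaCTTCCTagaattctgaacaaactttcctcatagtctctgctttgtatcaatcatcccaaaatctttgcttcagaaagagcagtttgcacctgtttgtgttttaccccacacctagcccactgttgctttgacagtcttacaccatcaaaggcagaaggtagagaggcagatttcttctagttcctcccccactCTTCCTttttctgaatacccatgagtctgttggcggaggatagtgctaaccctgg
Cd3g: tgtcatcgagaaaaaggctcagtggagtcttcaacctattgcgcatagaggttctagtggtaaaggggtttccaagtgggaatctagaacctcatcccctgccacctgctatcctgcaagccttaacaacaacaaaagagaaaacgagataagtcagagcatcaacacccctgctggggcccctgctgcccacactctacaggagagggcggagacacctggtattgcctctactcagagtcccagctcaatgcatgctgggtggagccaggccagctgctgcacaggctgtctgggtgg
Cd3e: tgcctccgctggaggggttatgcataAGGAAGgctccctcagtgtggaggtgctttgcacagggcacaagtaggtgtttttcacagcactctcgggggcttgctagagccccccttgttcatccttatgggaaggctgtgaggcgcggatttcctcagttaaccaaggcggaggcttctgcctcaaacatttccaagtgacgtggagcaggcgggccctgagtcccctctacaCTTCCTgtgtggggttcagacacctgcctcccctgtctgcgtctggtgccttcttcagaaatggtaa
The ETS letters occur 2 times in the Cd3d window, 2 times in the Cd3e window and 0 times in the Cd3g window, and the RUNX letters in none of the 3. Of all 32851 promoter windows in the table, 35.4% hold the ETS letters and 16.8% the RUNX letters. Of the 25 member promoters, 15 hold the ETS letters and 11 the RUNX letters. The 2 motifs can share at most 1 letter, and no match in the printed windows does. A match is a description of the letters in this window and not a site of binding.

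The coreceptors divide helper from cytotoxic T cells. Cd4 (ENSMUSG00000023274; mm10 chromosome 6, 124864692 to 124888221) marks helper and regulatory T cells. Cd4 was at 31.1, 85.4, 37.5 and 48.2 normalized counts in the ATRXfl_G34R libraries and at 337, 16.4, 33.98 and 22.7 in the ATRXfl_WT libraries. Cd4 counts were 18.7, 50.2 and 118 in p53_G34R and 125, 32.95, 110.3 and 61.2 in p53_WT. ATRXfl_WT replicate 1 was the highest for Cd4, while the other 14 libraries lay between 16.4 and 125 and the groups overlapped. That library also held the highest erythroid and endothelial sums; their part in its Cd4 level was not tested. Cd8a (ENSMUSG00000053977; mm10 chromosome 6, 71373427 to 71379173) encodes the alpha chain of CD8, the coreceptor of cytotoxic T cells. Cd8a was at 33.04, 15.2, 73.1 and 71.1 normalized counts in the ATRXfl_G34R libraries and at 25.4, 8.18, 0.871 and 9.47 in the ATRXfl_WT libraries. Cd8a counts were 12.5, 7.79 and 50.6 in p53_G34R and 46.6, 2.13, 12.8 and 25.9 in p53_WT. For Cd8a, 3 of the 4 ATRXfl_G34R libraries lay above every ATRXfl_WT library, and replicate 2 at 15.2 lay below ATRXfl_WT replicate 1 at 25.4. Cd8b1 (ENSMUSG00000053044; mm10 chromosome 6, 71322788 to 71337494) encodes the beta chain of CD8. Cd8b1 was at 14.6, 12.2, 44.4 and 16.9 normalized counts in the ATRXfl_G34R libraries and at 34.2, 2.34, 6.099 and 11.4 in the ATRXfl_WT libraries. Cd8b1 counts were 0, 6.06 and 26.6 in p53_G34R and 36.9, 0, 0.855 and 7.26 in p53_WT. Cd8b1 had no read in p53_G34R replicate 1 and p53_WT replicate 2 and was highest in ATRXfl_G34R replicate 3, and its groups overlapped.

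Adhesion and costimulation genes had medians of 1.31 to 7.15 normalized counts per kilobase. Cd2, an adhesion molecule of T and NK cells, ranged over 2.34 to 50.8 (median 12.5), and Cd5, a damper of receptor signalling, over 0 to 24.8 (median 8.13). Cd28, the receptor of the main costimulatory signal, ranged over 2.41 to 55.1 (median 13.7), and Icos, an inducible costimulator, over 0 to 15.2 (median 5.19). Cd28 was highest in p53_G34R replicate 1, p53_WT replicate 3 and ATRXfl_WT replicate 2, libraries in which Cd3e was at 7.27, 4.27 and 0. Cd6 (ENSMUSG00000024670; mm10 chromosome 19, 10789341 to 10830058) is a scavenger receptor family member of T cells. Cd6 was at 4.86, 8.13, 23.7 and 32.6 normalized counts in the ATRXfl_G34R libraries and at 30.3, 1.17, 0.871 and 10.4 in the ATRXfl_WT libraries. Cd6 counts were 3.12, 4.33 and 10.6 in p53_G34R and 37.96, 1.06, 121 and 13.5 in p53_WT. Its highest value, 121, came from the same p53_WT replicate 3 as that of Trbc2, and the other 14 libraries held at most 37.96.

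The proximal signalling genes had medians per kilobase of 28.1 for Lck, 21.7 for Zap70 and 11.7 for Lat, against 2.36 to 5.72 for Cd3d, Cd3e, Cd3g and Cd247. The constant region genes of the receptor had 5.05 for Trbc1, 13.7 for Trac and 22.03 for Trbc2. Trbc2 thus lay above Zap70, and Trac above Lat. Lck, the kinase bound to CD4 and CD8, ranged over 33.1 to 168 (median 82.4). Zap70, the kinase recruited to CD3 zeta, ranged over 29.3 to 300.1 (median 65.04), and Lat, the adaptor that it phosphorylates, over 20.5 to 78.2 (median 32.2). All 3 had reads in every library, also in those without a Cd3e read: the p53_WT replicate 2 tumour held 61.7 counts of Lck, 54.2 of Zap70 and 28.7 of Lat. Zap70 was highest in ATRXfl_WT replicate 1, the library with the most Cd4.

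Foxp3 (ENSMUSG00000039521; mm10 chromosome X, 7573644 to 7595245) encodes the transcription factor that defines regulatory T cells. Foxp3 was at 4.86, 18.3, 16.8 and 8.44 normalized counts in the ATRXfl_G34R libraries and at 6.84, 31.5, 6.97 and 8.52 in the ATRXfl_WT libraries. Foxp3 counts were 6.24, 12.1 and 14.2 in p53_G34R and 19.5, 17.01, 10.3 and 12.5 in p53_WT. Foxp3 was highest in ATRXfl_WT replicate 2, which had no read of Cd3e, and its groups overlapped. Its exons overlap those of Ccdc22, Flicr, Ppp1r3f and Gm36995, so its reads may not all be its own. Il2ra, the high-affinity chain of the interleukin 2 receptor, ranged over 0 to 35.2 (median 11.97). Il2rb (ENSMUSG00000068227; mm10 chromosome 15, 78479256 to 78495271) encodes the signalling chain that T and NK cells share for interleukins 2 and 15. Il2rb was at 48.6, 66.1, 117 and 102 normalized counts in the ATRXfl_G34R libraries and at 82.1, 42.1, 16.6 and 46.4 in the ATRXfl_WT libraries. Il2rb counts were 40.5, 6.92 and 88.7 in p53_G34R and 35.8, 0, 35.9 and 22.8 in p53_WT. All 4 ATRXfl_G34R libraries lay above all 4 p53_WT libraries for Il2rb, while the ATRXfl_WT and p53_G34R libraries overlapped both.

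The 6 cytotoxic genes had few reads, and none exceeded 48.2 normalized counts in a library. Gzma (ENSMUSG00000023132; mm10 chromosome 13, 113093825 to 113100981) and Gzmb (ENSMUSG00000015437; mm10 chromosome 14, 56258838 to 56262260) encode granzymes, the proteases of the killing granules. Gzma was at 5.83, 3.05, 10.9 and 9.65 normalized counts in the ATRXfl_G34R libraries and at 18.6, 0, 2.61 and 27.4 in the ATRXfl_WT libraries. Gzma counts were 17.7, 0 and 16.9 in p53_G34R and 28.2, 1.06, 9.402 and 14.5 in p53_WT. The highest Gzma value was in p53_WT replicate 1, and ATRXfl_WT replicate 2 and p53_G34R replicate 2 had no read. Gzmb was at 3.89, 0, 4.94 and 1.21 normalized counts in the ATRXfl_G34R libraries and at 7.82, 0, 1.74 and 6.63 in the ATRXfl_WT libraries. Gzmb counts were 0, 1.73 and 9.76 in p53_G34R and 1.08, 0, 9.402 and 4.15 in p53_WT. Gzmb stayed below 10 in all libraries and had no read in 4. Prf1 (ENSMUSG00000037202; mm10 chromosome 10, 61297833 to 61304680) encodes perforin, which opens the target membrane. Prf1 was at 0, 1.02, 9.87 and 6.03 normalized counts in the ATRXfl_G34R libraries and at 19.6, 2.34, 1.74 and 0 in the ATRXfl_WT libraries. Prf1 counts were 2.08, 5.19 and 8.87 in p53_G34R and 10.8, 1.06, 5.98 and 10.4 in p53_WT. Prf1 was highest in ATRXfl_WT replicate 1 and had no read in ATRXfl_G34R replicate 1 and ATRXfl_WT replicate 4. Nkg7 (ENSMUSG00000004612; mm10 chromosome 7, 43437073 to 43438249) encodes a membrane protein of cytotoxic granules. Nkg7 was at 10.7, 4.07, 31.6 and 48.2 normalized counts in the ATRXfl_G34R libraries and at 25.4, 0, 0 and 6.63 in the ATRXfl_WT libraries. Nkg7 counts were 7.27, 0.865 and 28.4 in p53_G34R and 16.3, 0, 5.98 and 11.4 in p53_WT. Nkg7 had no read in the same 3 libraries as Cd3e, and was highest in ATRXfl_G34R replicate 4. Gzmk ranged over 0 to 12.1 (median 0) with no read in 8 libraries, and Ifng, the gene of interferon gamma, over 0 to 8.31 (median 0) with no read in 8.

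Of the NK receptors, Klrk1 (ENSMUSG00000030149; mm10 chromosome 6, 129610323 to 129623864) encodes NKG2D, an activating receptor that mouse NK cells and activated CD8 T cells carry. Klrk1 was at 12.6, 4.07, 25.7 and 43.4 normalized counts in the ATRXfl_G34R libraries and at 1.96, 2.34, 0 and 17.98 in the ATRXfl_WT libraries. Klrk1 counts were 15.6, 0 and 28.4 in p53_G34R and 10.8, 3.19, 0.855 and 16.6 in p53_WT. Klrk1 was highest in ATRXfl_G34R replicate 4 and had no read in ATRXfl_WT replicate 3 and p53_G34R replicate 2. Ncr1 (ENSMUSG00000062524; mm10 chromosome 7, 4337724 to 4345164) encodes NKp46, which is largely limited to NK cells and related innate lymphocytes. Ncr1 was at 0, 0, 2.96 and 0 normalized counts in the ATRXfl_G34R libraries and at 1.96, 0, 0.871 and 0.947 in the ATRXfl_WT libraries. Ncr1 counts were 0, 0 and 0.887 in p53_G34R and 11.9, 1.06, 0 and 0 in p53_WT. Ncr1 had no read in 8 of 15 libraries and was above 3 counts only in p53_WT replicate 1.

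Ccl5 (ENSMUSG00000035042; mm10 chromosome 11, 83525778 to 83530518) encodes a chemokine made by effector T and NK cells and by other stimulated cells. Ccl5 was at 109, 66.1, 239.9 and 623 normalized counts in the ATRXfl_G34R libraries and at 116, 201, 43.6 and 409.8 in the ATRXfl_WT libraries. Ccl5 counts were 585, 31.1 and 101 in p53_G34R and 86.8, 13.8, 208 and 101 in p53_WT. Ccl5 was highest in ATRXfl_G34R replicate 4, p53_G34R replicate 1 and ATRXfl_WT replicate 4, 1 library of each of 3 groups, and lowest in p53_WT replicate 2. Cxcr3 (ENSMUSG00000050232; mm10 chromosome X, 101731535 to 101734269) encodes the receptor for interferon-induced chemokines on effector T cells. Cxcr3 was at 0, 6.098, 7.899 and 7.23 normalized counts in the ATRXfl_G34R libraries and at 8.799, 8.18, 0 and 2.84 in the ATRXfl_WT libraries. Cxcr3 counts were 14.5, 6.06 and 10.6 in p53_G34R and 9.76, 2.13, 10.3 and 1.04 in p53_WT. Cxcr3 had no read in ATRXfl_G34R replicate 1 and ATRXfl_WT replicate 3, and every group overlapped the others. Tbx21 (ENSMUSG00000001444; mm10 chromosome 11, 97098071 to 97115331) encodes T-bet, the transcription factor of type 1 helper and cytotoxic lymphocytes. Tbx21 was at 27.2, 53.9, 21.7 and 19.3 normalized counts in the ATRXfl_G34R libraries and at 33.2, 42.1, 24.4 and 19.9 in the ATRXfl_WT libraries. Tbx21 counts were 19.7, 27.7 and 28.4 in p53_G34R and 15.2, 7.44, 7.69 and 24.9 in p53_WT. The 3 lowest Tbx21 values were all in p53_WT, but p53_WT replicate 4 lay inside the ranges of the other groups.

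The checkpoint receptors were of 2 kinds in level. Per kilobase of exon, Lag3 and Havcr2 had medians of 171 and 95.7, while Tigit, Pdcd1 and Ctla4 had 7.91, 6.05 and 2.68. Among the cytotoxic genes, the medians per kilobase were 9.59 for Gzma, 7.96 for Nkg7, 2.01 for Prf1, 1.21 for Gzmb and 0 for Gzmk and Ifng. Summed over the 5 checkpoint genes, counts without regard to length were 641, 462, 984 and 2052 in ATRXfl_G34R and 871, 701, 281 and 631 in ATRXfl_WT. The checkpoint sums were 1106, 247 and 611 in p53_G34R and 656, 147, 1715 and 651 in p53_WT. The 6 cytotoxic genes summed to 2.13 to 80.8 (median 35.3), which is below the checkpoint sum in each of the 15 libraries. Lag3 (ENSMUSG00000030124; mm10 chromosome 6, 124904361 to 124911705) encodes an inhibitory receptor for MHC class II. Lag3 was at 428, 236, 647 and 1365 normalized counts in the ATRXfl_G34R libraries and at 342, 376, 132 and 356 in the ATRXfl_WT libraries. Lag3 counts were 661, 81.3 and 360.2 in p53_G34R and 493, 49.96, 827 and 356 in p53_WT. Lag3 was highest in ATRXfl_G34R replicate 4 and p53_WT replicate 3 and lowest in p53_WT replicate 2 and p53_G34R replicate 2. In libraries without a Cd3e read, Lag3 was at 376 and 132 (ATRXfl_WT replicates 2 and 3) and 49.96 (p53_WT replicate 2). Which cells held the Lag3 reads was not tested. Havcr2 (ENSMUSG00000020399; mm10 chromosome 11, 46454935 to 46481255) encodes TIM-3, carried by exhausted T cells and by myeloid cells. Havcr2 was at 158, 204, 261 and 502 normalized counts in the ATRXfl_G34R libraries and at 488, 261, 144 and 262 in the ATRXfl_WT libraries. Havcr2 counts were 407, 158 and 224 in p53_G34R and 155, 94.6, 768 and 271 in p53_WT. Havcr2 was highest in p53_WT replicate 3, the library with the most microglia and macrophage counts, and lowest in p53_WT replicate 2.

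Pdcd1 (ENSMUSG00000026285; mm10 chromosome 1, 94038305 to 94052553) encodes PD-1, the receptor for PD-L1 on activated T cells. Pdcd1 was at 34.01, 6.098, 54.3 and 127 normalized counts in the ATRXfl_G34R libraries and at 22.5, 11.7, 0.871 and 7.57 in the ATRXfl_WT libraries. Pdcd1 counts were 14.5, 0.865 and 12.4 in p53_G34R and 6.51, 0, 109 and 7.26 in p53_WT. Pdcd1 exceeded 100 in ATRXfl_G34R replicate 4 and in p53_WT replicate 3, and ATRXfl_G34R replicates 1 and 3 came next. In p53_WT replicate 3, Cd3e was at 4.27 and Cd8a at 12.8. Ctla4 (ENSMUSG00000026011; mm10 chromosome 1, 60887000 to 60915832) encodes the competitor of CD28 for its ligands. Ctla4 was at 19.4, 4.07, 12.8 and 25.3 normalized counts in the ATRXfl_G34R libraries and at 12.7, 12.9, 1.74 and 0 in the ATRXfl_WT libraries. Ctla4 counts were 6.24, 2.595 and 7.098 in p53_G34R and 0, 0, 4.27 and 9.34 in p53_WT. Ctla4 was highest in ATRXfl_G34R replicate 4 and had no read in ATRXfl_WT replicate 4 and p53_WT replicates 1 and 2. Tigit, a receptor for nectin-like ligands, ranged over 0.972 to 39.7 (median 7.26) and was highest in ATRXfl_WT replicate 2.

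**Figure D2:**
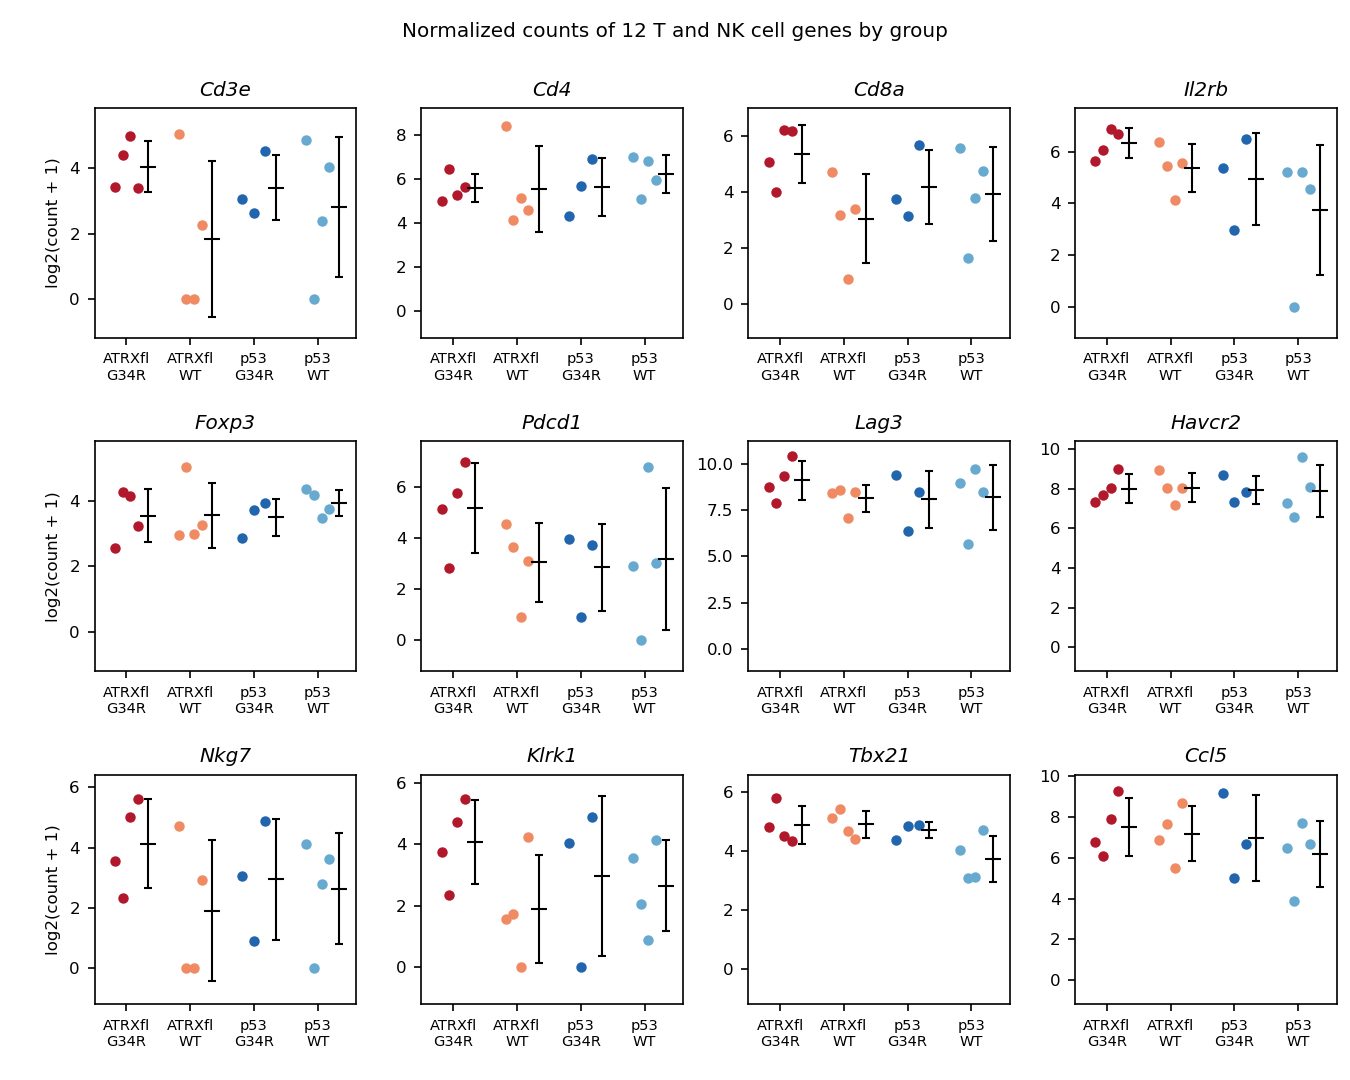
Values of 12 T and NK cell genes by group, as log2(normalized count + 1); each point is a tumour library and the bar beside it is the group mean and SD on that scale (n = 4, 4, 3 and 4). The groups overlap in every panel except for Il2rb between ATRXfl_G34R and p53_WT, where all 4 ATRXfl_G34R points lie above all 4 p53_WT points.

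In the tumours with floxed Atrx, H3.3G34R was compared with H3.3WT (ATRXfl_G34R against ATRXfl_WT, n = 4 each), which asks about the mutant histone on a background of Atrx deletion. 20 of 28 tested members (9 of the 37 were below the mean of 10) had a positive log2 change and 8 a negative one, with a median of 0.62 on the log2(count + 1) scale, but no change passed the test. Over all genes tested, 49.9% were positive, with a median of -0.0008. Cd3d, Cd3e, Trbc1, Ctla4, Nkg7 and Klrk1 averaged under 10 in ATRXfl_WT and entered through ATRXfl_G34R, which favours a positive sign. limma called 0 members among the 28 with a mean of at least 10 in the table, where 0% of 17521 genes were called. The smallest adjusted p of a member was 0.999677. The authors' deposited table also held 0 members past an adjusted p of 0.05, beside 0.182% of all genes with an adjusted p in it, and both edgeR and DESeq2 called 0 members. An unadjusted limma p under 0.05 was found for 1 of these members and for 2.79% of all genes tested. Cd8a averaged 47.3 ± 28.2 normalized counts in ATRXfl_G34R and 10.7 ± 10.1 in ATRXfl_WT, a log2 change of 2.32 (SE 0.85, limma unadjusted p = 0.022). Klrk1 averaged 21.1 ± 16.9 normalized counts in ATRXfl_G34R and 5.47 ± 8.202 in ATRXfl_WT, a log2 change of 2.19 (SE 1.02, limma unadjusted p = 0.0576). Pdcd1 averaged 54.5 ± 50.9 normalized counts in ATRXfl_G34R and 10.4 ± 8.85 in ATRXfl_WT, a log2 change of 2.13 (SE 1.01, limma unadjusted p = 0.0624). These members, and Cd3e with a log2 change of 2.22 (SE 1.12), had the smallest p of the list, and the groups overlapped in each of them. Without ATRXfl_WT replicate 3 the Pdcd1 change was 1.42. The authors' deposited table held log2 fold changes of 2.14 for Cd8a, 1.94 for Klrk1, 2.39 for Pdcd1 and 0.97 for Cd3e, whose value on the log2(count + 1) scale is larger; 2 ATRXfl_WT libraries had no Cd3e read. No member had groups that do not overlap, against 2.16% of all genes tested. By role, the medians were 0.97 over 5 checkpoint genes, 1.01 over 3 coreceptors and -0.31 over 3 signalling genes, while Nkg7 was the only cytotoxic gene that could be tested. The median of the members ranged from 0.14 without ATRXfl_G34R replicate 4 to 1.02 without ATRXfl_WT replicate 1. Other lists of the same comparison, none with a called gene, were other T cell signalling and identity genes (13 positive and 7 negative of 20 tested, median log2 change 0.21), T cell chemoattractants (6 positive and 1 negative of 7 tested, median log2 change 0.85) and interferon gamma response genes (15 positive and 1 negative of 16 tested, median log2 change 0.44). The mature neuron markers (10 of 10 positive, median 2.46) and the erythroid markers (6 of 6, median 1.22) also had positive changes, with 0 called; their part in the members' values was not tested.

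With Atrx intact, H3.3G34R was compared with H3.3WT (p53_G34R, n = 3, against p53_WT, n = 4). The members were divided in sign, 11 positive and 14 negative of 25 tested, with a median log2 change of -0.08. limma called 0 members among the 25 with a mean of at least 10 in the table, where 0% of 17873 genes were called. The smallest adjusted p of a member was 0.999987. The authors' deposited table also held 0 members past an adjusted p of 0.05, beside 0.0578% of all genes with an adjusted p in it, and both edgeR and DESeq2 called 0 members. An unadjusted limma p under 0.05 was found for 0 of these members and for 1.47% of all genes tested. Tbx21 averaged 25.9 ± 5.0002 normalized counts in p53_G34R and 14.1 ± 8.45 in p53_WT, a log2 change of 0.97 (SE 0.63, limma unadjusted p = 0.159). Cd6 averaged 6.16 ± 4.11 normalized counts in p53_G34R and 44.2 ± 54.7 in p53_WT, a log2 change of -1.61 (SE 1.33, limma unadjusted p = 0.261). Without p53_WT replicate 3, the tumour with the high Cd6 value, that change was -0.73, and without p53_WT replicate 2 it was -2.69. Il2rb averaged 46.3 ± 41.9 normalized counts in p53_G34R and 24.1 ± 17.2 in p53_WT, a log2 change of 1.21 (SE 1.45, limma unadjusted p = 0.429). Leaving out p53_WT replicate 2, which had no Il2rb read, brought it to -0.04, and leaving out p53_G34R replicate 2 to 2.19. Cd4 had a log2 change of -0.58 (SE 0.75), 0.09 without p53_G34R replicate 1 and -1.21 without p53_G34R replicate 3. No member had groups that do not overlap, against 2.61% of all genes tested. Of the adhesion and costimulation genes 4 of 4 tested had a negative log2 change, and of the proximal signalling genes 3 of 3. Cd5, Cd6 and Pdcd1 averaged under 10 in p53_G34R and entered through p53_WT, which favours a negative sign. Nkg7 and Klrk1 averaged under 10 in p53_WT and entered through p53_G34R, which favours a positive one. Among the checkpoint genes, Lag3 and Pdcd1 had small negative changes (-0.12, SE 1.05, and -0.31, SE 1.59) and Havcr2 a positive one (0.05, SE 0.72). With 0 genes called in any list, interferon gamma response genes were positive in 15 of 16 (median 0.55) and microglia and macrophage markers in 5 of 19 (median -0.08). Mature neuron markers were negative in 9 of 10 (median -2.07) and erythroid markers in 6 of 6 (-1.38), while neutrophil and mast cell markers were positive in 4 of 4 tested (1.52); their part in the members' values was not tested.

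Under H3.3G34R, Atrx-floxed tumours were compared with Atrx-intact ones (ATRXfl_G34R, n = 4, against p53_G34R, n = 3). Most members had a positive log2 change, 21 of 26 with 5 negative and a median of 0.53, and again no change passed the test. limma called 0 members among the 26 with a mean of at least 10 in the table, where 0.0229% of 17459 genes were called. The smallest adjusted p of a member was 0.999904. The authors' deposited table also held 0 members past an adjusted p of 0.05, beside 0.538% of all genes with an adjusted p in it, and both edgeR and DESeq2 called 0 members. An unadjusted limma p under 0.05 was found for 0 of these members and for 3.39% of all genes tested. Pdcd1 averaged 55.1 ± 51.3 normalized counts in ATRXfl_G34R and 9.26 ± 7.33 in p53_G34R, a log2 change of 2.32 (SE 1.12, limma unadjusted p = 0.0704). Il2rb averaged 83.5 ± 31.5 normalized counts in ATRXfl_G34R and 45.4 ± 41.3 in p53_G34R, a log2 change of 1.37 (SE 0.79, limma unadjusted p = 0.121). Cd8b1 averaged 21.98 ± 14.96 normalized counts in ATRXfl_G34R and 10.9 ± 14.01 in p53_G34R, a log2 change of 1.80 (SE 1.09, limma unadjusted p = 0.137). Ctla4 averaged 15.4 ± 9.11 normalized counts in ATRXfl_G34R and 5.31 ± 2.38 in p53_G34R, a log2 change of 1.23 (SE 0.76, limma unadjusted p = 0.143). In each of these 4 genes the groups overlapped, and no member had groups that do not overlap, against 4.64% of all genes tested. Without p53_G34R replicate 2 the Pdcd1 change was 1.33 and the Il2rb change 0.39. The Il2rb change was 2.14 without p53_G34R replicate 3. That of Cd8b1 was 0.53 without p53_G34R replicate 1 and 2.92 without p53_G34R replicate 3. All 5 checkpoint genes were positive (median 1.02), and the receptor complex was divided, 3 positive and 3 negative of 6 tested. The checkpoint genes Pdcd1, Ctla4 and Tigit, and also Cd6, averaged under 10 in p53_G34R and entered through ATRXfl_G34R, which favours a positive sign. The MHC class I presentation genes were positive in 10 of 10 (median 0.90), B and plasma cell markers in 10 of 10 (0.96), mature neuron markers in 10 of 10 (1.57) and erythroid markers in 6 of 6 (3.55), with 0 called in each list; the part of blood or other cells in the members' values was not tested.

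Under H3.3WT, Atrx-floxed tumours were compared with Atrx-intact ones (ATRXfl_WT against p53_WT, n = 4 each). The members were again divided, 11 positive and 13 negative of 24 tested, with a median log2 change of -0.06. limma called 0 members among the 24 with a mean of at least 10 in the table, where 0.0335% of 17893 genes were called. The smallest adjusted p of a member was 0.975. The authors' deposited table also held 0 members past an adjusted p of 0.05, beside 0.352% of all genes with an adjusted p in it, and both edgeR and DESeq2 called 0 members. An unadjusted limma p under 0.05 was found for 0 of these members and for 3.76% of all genes tested. Tbx21 averaged 29.8 ± 9.79 normalized counts in ATRXfl_WT and 13.9 ± 8.27 in p53_WT, a log2 change of 1.16 (SE 0.57, limma unadjusted p = 0.0705). Il2rb averaged 46.7 ± 26.8 normalized counts in ATRXfl_WT and 23.7 ± 16.9 in p53_WT, a log2 change of 1.63 (SE 1.16, limma unadjusted p = 0.195). Cd6 averaged 10.7 ± 13.7 normalized counts in ATRXfl_WT and 43.4 ± 53.9 in p53_WT, a log2 change of -1.66 (SE 1.38, limma unadjusted p = 0.259). Trbc2 averaged 17.3 ± 20.97 normalized counts in ATRXfl_WT and 67.8 ± 92.9 in p53_WT, a log2 change of -1.50 (SE 1.30, limma unadjusted p = 0.279). The Cd6 and Trbc2 changes rest in part on p53_WT replicate 3 and were -0.78 and -0.56 without it, and without p53_WT replicate 2 they were -2.74 and -2.43. The Il2rb change was 0.38 without p53_WT replicate 2, and the authors' deposited table, with all libraries, held 0.98. No member had groups that do not overlap, against 2.65% of all genes tested. Neither NK receptor had a mean of at least 10 here, so none was tested. Of the other NK and cytotoxic genes outside the member list, 7 of 9 tested were positive (median 1.36), with 0 called. ATRXfl_WT replicate 1 held the highest values of the 2 groups for Klri2 (3387), Ctsw (850), Ccl3 (959) and Ccl4 (462). Klri2 reached the mean of 10 only through that library, and the part of that library in the count was not tested. Mature neuron markers were negative in 10 of 10 (median -3.11) with 0 called, and p53_WT replicate 3 held 66621 counts of the neuronal kinase gene Camk2a, where the other p53_WT libraries held 17.01 to 499. Erythroid markers were positive in 5 of 6 (median 0.81), with 0 called; the part of these cells in the members' values was not tested.

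Tumours with both changes were compared with those with neither (ATRXfl_G34R against p53_WT, n = 4 each). 17 members were positive and 10 negative of 27 tested, with a median log2 change of 0.59. Over all genes tested, 49.2% were positive, with a median of -0.0076. Cd3d, Il2ra, Nkg7 and Klrk1 averaged under 10 in p53_WT and entered through ATRXfl_G34R, which favours a positive sign. Cd5 and Gzma averaged under 10 in ATRXfl_G34R and entered through p53_WT, which favours a negative one. limma called 0 members among the 27 with a mean of at least 10 in the table, where 0.0227% of 17659 genes were called. The smallest adjusted p of a member was 0.999167. The authors' deposited table also held 0 members past an adjusted p of 0.05, beside 0.38% of all genes with an adjusted p in it, and both edgeR and DESeq2 called 0 members. An unadjusted limma p under 0.05 was found for 1 of these members and for 4.37% of all genes tested. Il2rb averaged 81.02 ± 30.5 normalized counts in ATRXfl_G34R and 22.8 ± 16.3 in p53_WT, a log2 change of 2.57 (SE 1.10, limma unadjusted p = 0.0454). Il2rb was the only member whose groups did not overlap, where 2.94% of all genes tested had such groups, and its change was 1.33 without p53_WT replicate 2, the library with no Il2rb read. Tbx21 averaged 29.6 ± 15.5 normalized counts in ATRXfl_G34R and 13.4 ± 8.02 in p53_WT, a log2 change of 1.14 (SE 0.58, limma unadjusted p = 0.0818). Cd8b1 averaged 21.3 ± 14.5 normalized counts in ATRXfl_G34R and 10.9 ± 16.9 in p53_WT, a log2 change of 2.03 (SE 1.12, limma unadjusted p = 0.105). Cd8a averaged 46.6 ± 27.6 normalized counts in ATRXfl_G34R and 21.2 ± 18.7 in p53_WT, a log2 change of 1.43 (SE 0.90, limma unadjusted p = 0.144). The groups overlapped in these 3 genes, and without p53_WT replicate 2 the Cd8b1 change was 1.27 and the Cd8a change 0.67. The authors' deposited table held log2 fold changes of 1.82 for Il2rb, 0.97 for Cd8b1 and 1.14 for Cd8a. Of the checkpoint genes, Pdcd1, Lag3 and Havcr2 could be tested and were positive, with log2 changes of 1.99 (SE 1.40), 0.90 (SE 0.86) and 0.12 (SE 0.65). The median over the members was 0.08 without p53_WT replicate 2. Among other lists with 0 called genes, the 16 interferon gamma response genes were all positive (median 1.18), as were 6 of 7 T cell chemoattractants (median 1.80) and 9 of 10 B and plasma cell markers (median 1.33). Erythroid markers were positive in 5 of 6 (median 2.05) and neutrophil and mast cell markers in 4 of 4 tested (1.21), with 0 called; their part in the members' values was not tested. Over the 5 comparisons, 130 changes of members could be set beside the log2 fold change in the authors' deposited table: 21 had the other sign there, and 57 had the same sign and were larger on the log2(count + 1) scale. Trac with floxed Atrx was one with the other sign, at -0.15 by limma (SE 1.21) and 0.61 in the authors' deposited table. The 5 comparisons share libraries with each other, so their values are not independent of each other.

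**Figure D3:**
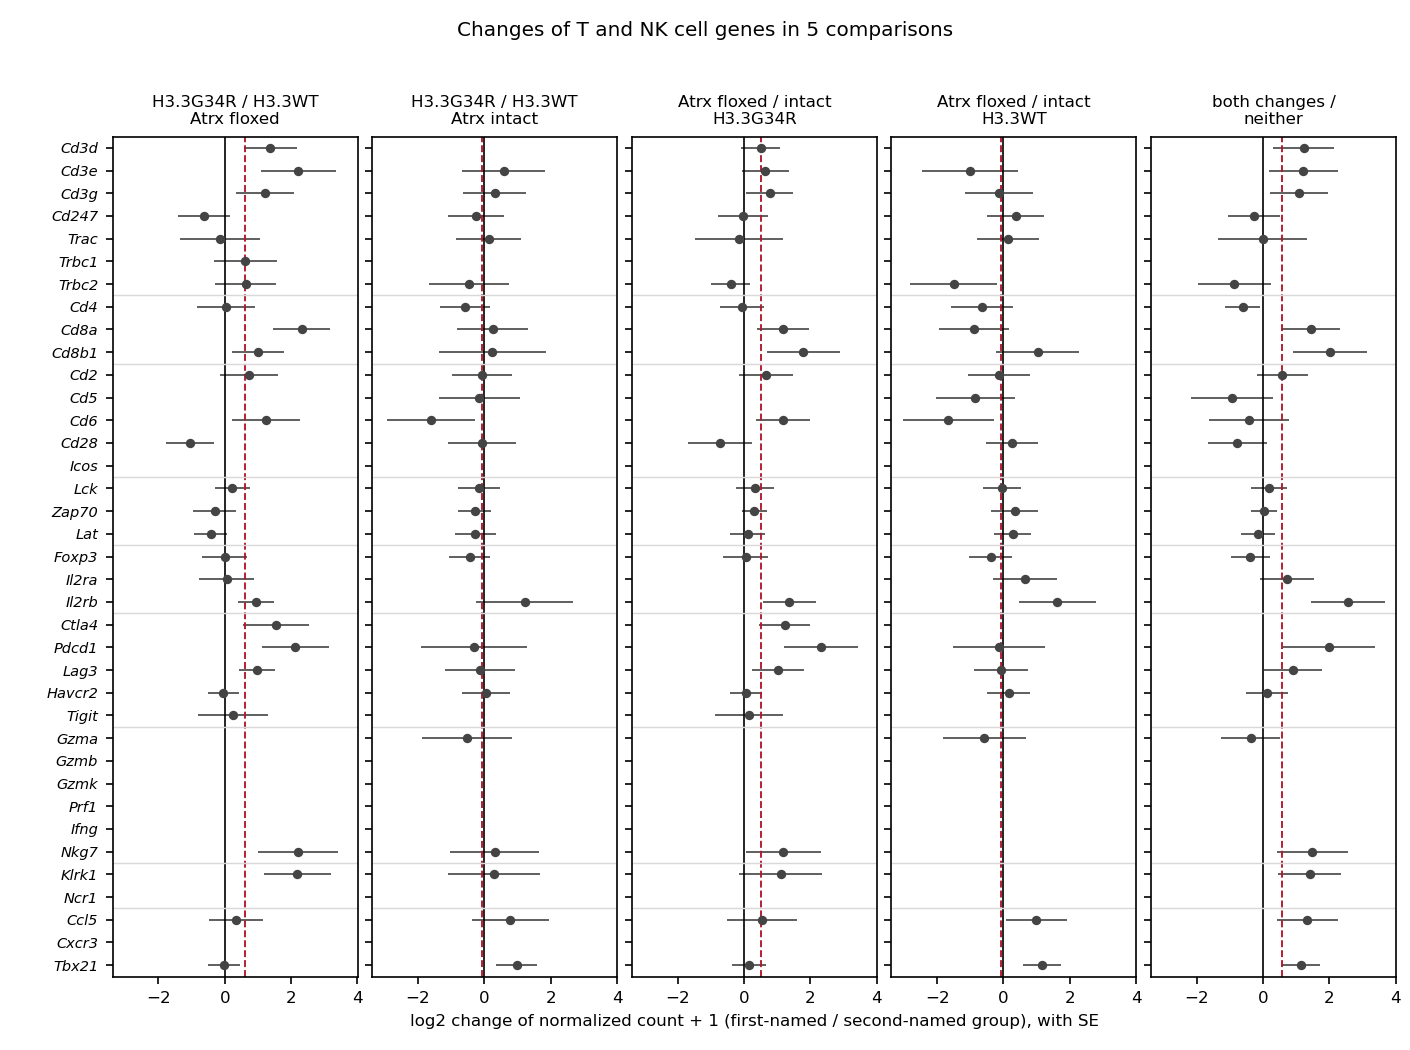
Changes of log2(normalized count + 1) of the members with a mean of at least 10 in each of the 5 comparisons, as the first-named group relative to the second-named one; points are limma estimates, bars are 1 SE and the dashed line is the median of the members. Rows without a point were below that mean. No member passed an adjusted p of 0.05, and the median line lies at 0.62, -0.08, 0.53, -0.06 and 0.59 from left to right.

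The difference between the H3.3G34R changes with floxed and with intact Atrx was tested as an interaction over all 15 libraries. 17 of 27 members had a positive interaction and 10 a negative one, with a median of 0.65 on the log2 scale. limma called 0 members, against 0% of all genes tested, and the smallest adjusted p of a member was 0.999591; 0 members and 2.05% of all genes had an unadjusted p under 0.05. Among the 4 members with the smallest p, the positive estimates were 2.85 (SE 1.74) for Cd6, 2.44 (SE 1.94) for Pdcd1 and 2.07 (SE 1.41) for Cd8a. Tbx21, the fourth of them, had a negative one. A test for any difference over the 4 groups also called 0 members, where 0.0281% of 17776 genes were called, and the smallest adjusted p of a member was 0.999983 (0 members with an unadjusted p under 0.05). A p that misses the threshold does not show that the groups were alike. For Cd8a with floxed Atrx, a log2 change of 2.32 with an SE of 0.85 did not pass.

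Cd3e was taken as the measure of T cell transcripts, and the other members were compared with it over the 15 libraries on the log2(count + 1) scale. With a mean of at least 10, 26 members entered, which gives 26 relations. Pearson's r passed a Benjamini-Hochberg adjusted permutation p of 0.05 for 10 members, Spearman's rho for 9 and both for 8, and 24 of 26 had a positive r. The closest was Cd3d (r = 0.87, adjusted permutation p = 0.00078; rho = 0.84, adjusted p = 0.00377). Next came Nkg7 of the cytotoxic granules (r = 0.86, adjusted permutation p = 0.00078; rho = 0.79, adjusted p = 0.00377) and Cd8a (r = 0.85, adjusted permutation p = 0.00113; rho = 0.81, adjusted p = 0.00377). Cd3g had r = 0.80 and Cd8b1 r = 0.71, followed by Cd6, Gzma, Cd2, Il2rb and Cd4 at 0.66 to 0.62. The 3 libraries without a Cd3e read, ATRXfl_WT replicates 2 and 3 and p53_WT replicate 2, lay equally far from the Cd3e median and farther than any other. Without all 3, r was 0.76 for Cd3d, 0.58 for Nkg7, 0.67 for Cd8a, 0.57 for Cd3g, 0.72 for Cd8b1, 0.56 for Cd4 and 0.51 for Il2rb. It was 0.16 for Cd6, 0.27 for Gzma and 0.35 for Cd2, so that the relations of these genes to Cd3e rest on those libraries. Over deviations from the group means, r was 0.85 for Cd3d, 0.83 for Nkg7 and 0.80 for Cd8a. The number of members that passed by r was 4 without p53_WT replicate 2 and 6 without ATRXfl_WT replicate 2 or p53_WT replicate 1.

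No checkpoint member with enough counts passed against Cd3e, and this was not particular to checkpoint genes. By r, the receptor genes Trbc2 (0.54, adjusted permutation p = 0.0862), Trac (0.49, 0.111) and Cd247 (0.38, 0.239) did not pass either, though Trac passed by rho. Nor did the signalling genes Lck (0.39, 0.233), Lat (0.19, 0.590) and Zap70 (0.17, 0.624). For Lag3, r was 0.48 (adjusted permutation p = 0.118), for Pdcd1 0.46 (0.138), for Havcr2 0.30 (0.383) and for Tigit 0.01 (0.975), none of which passed. Without the 3 libraries lacking a Cd3e read, r was 0.04 for Lag3, 0.007 for Pdcd1, -0.22 for Havcr2 and -0.07 for Tigit. Over all 15 libraries, Foxp3 (r = -0.10) and Cd28 (r = -0.13) were the 2 members with a negative r, and Ccl5 had r = 0.27. Without the same 3 libraries, r was 0.45 for Foxp3, -0.12 for Cd28 and -0.28 for Ccl5. The rho of Foxp3 over all libraries was 0.02, so its sign was not stable. Whether these values differ from those of Cd3d or Cd8a was not tested, and all members share the depth and the size factor of a library.

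**Figure D4:**
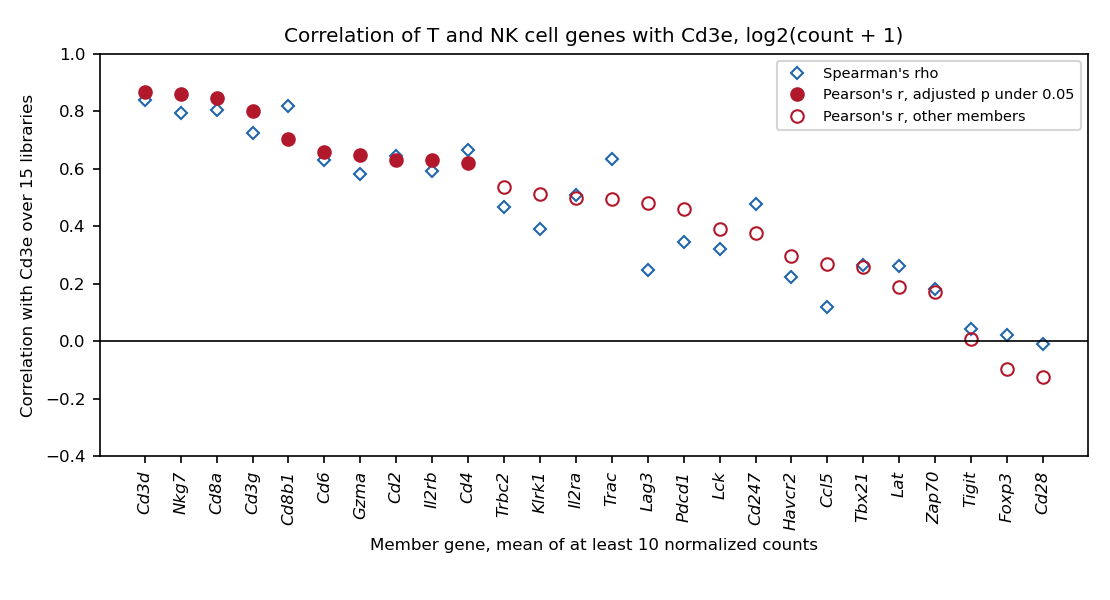
Pearson's r (circles, filled where the adjusted permutation p is under 0.05) and Spearman's rho (diamonds) between each of 26 members and Cd3e over 15 libraries, in falling order of r. Cd3d, Nkg7 and Cd8a lead with r of 0.87, 0.86 and 0.85, 10 members are filled, and Foxp3 and Cd28 lie below 0 by r.

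After these values were seen, 9 members were set against genes of other cells, among them Csf1r of microglia and macrophages, Hbb-bs of red cells and Snap25 of neurons. P-values were adjusted over all 45 relations computed; of the 27 with these 3 genes, 8 passed by r and 6 by both r and rho. Csf1r ranged from 964 normalized counts in p53_WT replicate 2 to 13291 in p53_WT replicate 3. Havcr2 followed Csf1r most closely, with permutation p-values before adjustment of 1e-05, the smallest that 100000 permutations can give (r = 0.93, adjusted permutation p = 0.00045; rho = 0.91, adjusted p = 0.00045). Its r was 0.86 without the 2 libraries farthest from the Csf1r median, p53_WT replicates 2 and 3, and 0.96 over deviations from the group means. Against the same gene, r was 0.88 for Cd6, 0.81 for Trbc2, 0.80 for Pdcd1, 0.78 for Lag3 and 0.66 for Ccl5, all past an adjusted permutation p of 0.05 by r and by rho. Without those 2 libraries they were 0.78, 0.60, 0.68, 0.73 and 0.66. Cd3e did not pass against Csf1r (r = 0.45, adjusted permutation p = 0.187, rho = 0.44). Its r was 0.57 without those 2 libraries and 0.50 over deviations from the group means. Cd8a (r = 0.52, adjusted permutation p = 0.133) and Cd4 (r = 0.45, adjusted permutation p = 0.191) did not pass either. Without those 2 libraries r was 0.66 for Cd8a and 0.37 for Cd4. Whether these values differ from those of the members that passed was not tested.

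Against Hbb-bs, Cd3e had r = 0.43 (adjusted permutation p = 0.22), and 0.72 without p53_G34R replicate 3 and p53_WT replicate 3. The relations of Trbc2 and Cd6 to Snap25 passed by r (0.69 and 0.70) but not by rho, and without p53_WT replicate 3 and ATRXfl_WT replicate 2 they were 0.09 and 0.40, so that they rest on those libraries. Which cells the reads of these genes came from was not tested.

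**Figure D5:**
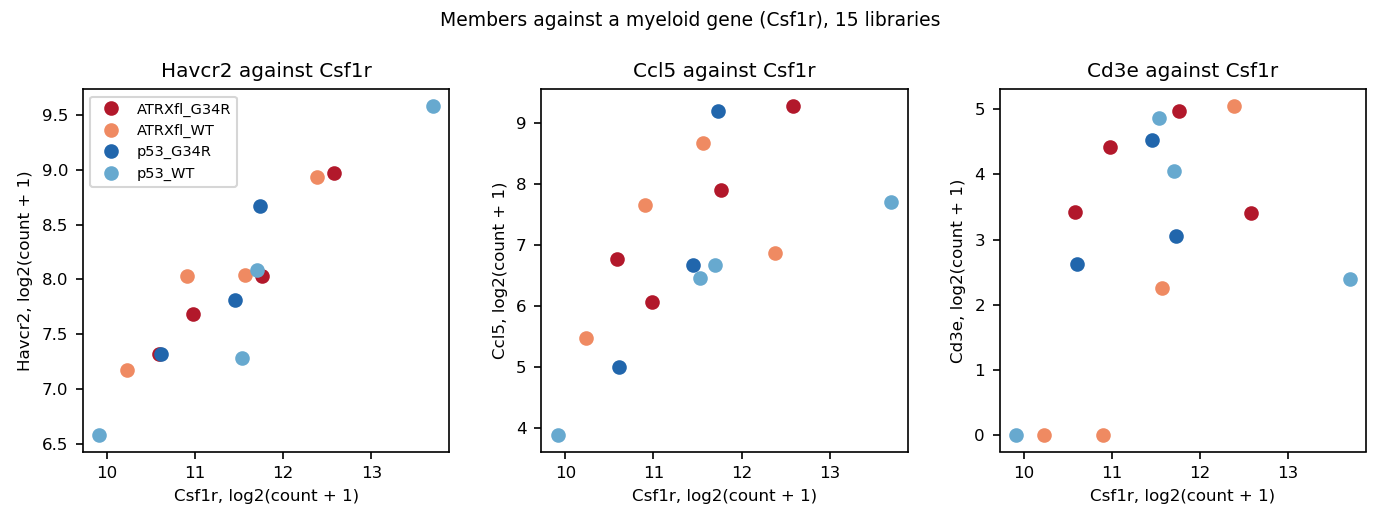
Havcr2 against Csf1r, Ccl5 against Csf1r and Cd3e against Csf1r, each as log2(normalized count + 1) in the 15 tumour libraries, coloured by group. Havcr2 climbs with Csf1r (r = 0.93) and Ccl5 also passed (r = 0.66). Cd3e did not pass (r = 0.45, and 0.57 without p53_WT replicates 2 and 3), and the groups are mixed in each panel.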

How the data were processed

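Per the labels, TruSeq mRNA libraries were made from RNeasy-purified RNA of 15 mouse tumours. The submitters' processing notes name STAR 2.7, HTSeq and DESeq2 on mm10; strand setting, annotation and other versions are not given in the sources used. Per the file headers, the authors deposited 5 tables, 1 for each pair of groups, with a signal per library (reads divided by a size factor of that table), its mean, and with a log2 fold change, its SE, a score (Wald statistic), and raw and adjusted p-values. All signal values (100%, within 0.01) were whole multiples of 1 read, so reads were recovered from 35 columns; 3 with a step near 1 were not used for this.

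IDs were matched to GENCODE vM21 symbols (54079 of 54232, 99.7%). Each pair was fitted with limma 3.58.1 (trend, robust; R 4.3.3) on log2(signal + 1) of genes averaging at least 10, with Benjamini-Hochberg adjustment over all genes and a threshold of 0.05. A fold change on this scale is smaller than a ratio of means where counts are low, but a library with 0 reads can make it larger. Tables were scaled separately, so means ± SD come from each pair's table, while library values, the interaction and the 4-group test use reads scaled over 15 libraries by the median of ratios. edgeR 4.0.16 and DESeq2 1.42.0 ran on the recovered reads as alternatives. Correlations used 100000 permutations; some of the relations computed are not reported here. In 21 within-group pairs of libraries, chi-square per degree of freedom was at least 89.8, so no library repeats another of its group. Replicates are numbered in accession order, and p-values measure the spread between these libraries. The fits were tested on simulated data. The members and gene lists were chosen with earlier results of these data known. Values in every library are given for a set list of members and for up to 4 with the smallest p in each comparison, others by range.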

Additional observations from a re-analysis of the deposited data

Results flagged for a closer look

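Groups of 4 libraries were searched for a library far from the other 3, by Dixon's ratio of the gap to the range on the log2 scale. Of 81 groups of member values, 6 (7.41%) held such a library, and chance alone gives about 1 in 20. Zap70 was at 83.6 normalized counts in ATRXfl_G34R replicate 1, against 65.04, 65.2 and 67.5 in the other 3. Zap70 also stood high in p53_WT replicate 3, at 123 against 54.2, 54.2 and 60.2. Foxp3 was at 31.5 in ATRXfl_WT replicate 2, against 6.84, 6.97 and 8.52. Il2ra was at 4.07 in ATRXfl_G34R replicate 2, against 14.5, 16.8 and 17.5. Il2rb had 0 counts in p53_WT replicate 2, against 22.8, 35.8 and 35.9. Lag3 was at 132 in ATRXfl_WT replicate 3, against 342, 356 and 376.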

How the results depend on the processing

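limma and each alternative (no filter, other pseudocounts, DESeq2, edgeR, all groups in 1 fit, libraries with a shared title code summed, each library left out, log2 Hbb-bs as a covariate) called 0 members in each of 120 alternatives, and the smallest adjusted p of a member was 0.492. Of 308 alternative log2 changes of named members, 8 moved by at least 1 SE and 2 changed sign, Il2rb (-0.04) and Cd4 (0.09) with intact Atrx. The Hbb-bs covariate was added after seeing the data. Over all genes, calls did move, and the cause was not tested. In the order of the comparisons above, DESeq2 called 27 and 6 against 0 and 0, then 102 against 4, 68 against 6 and 81 against 4, with 7 against 0 for the interaction and 119 against 5 over the 4 groups. edgeR called 0, 2 and 2 in the last 3 comparisons, and summed libraries gave 0, 2 and 2. No filter gave 12 for floxed Atrx under H3.3G34R and 10 over the 4 groups, a pseudocount of 0.5 gave 2 for both changes, and the covariate 0 for floxed Atrx under H3.3G34R. Leaving out each library gave 0 to 5, 2 to 8 and 2 to 8 calls in the last 3 comparisons, 0 in the first 2 and the interaction, and 4 to 10 over the 4 groups. Median changes of members then ranged over 0.14 to 1.02, -0.45 to 0.31, 0.20 to 0.86, -0.43 to 0.30 and 0.08 to 1.10, and members that followed Cd3e numbered 4 to 11. No paired analysis was possible because the replicate numbers come from accession order. A library with 0 reads allows up to 2.56 to 3.62 normalized counts, so differences below that level were not detectable at this depth.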

Other observations

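Klri2, an NK cell lectin receptor gene outside the 37 and chosen after its values were seen, was at 3387 normalized counts in ATRXfl_WT replicate 1 and at most 3.62 in the other 14 libraries, while Ncr1 was at 1.96 in that library. The sum over 29 other T cell signalling and identity genes was 43764 in p53_WT replicate 3, against a median of 6168 over all libraries; in that tumour Thy1 was at 21051 and Rasgrp1 at 10952, genes that neurons also express, and Cd3e at 4.27. The 10 MHC class I presentation genes summed to 14044 to 258752 and were highest in ATRXfl_WT replicate 4, where Cd3e was at 3.79 and Gzma at 27.4.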
